A study of Homo sapiens with 2 samples.

Results

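Potassium channel genes were taken as the protein-coding genes of GENCODE release 44, mapped to GRCh37, whose symbols begin with *KCNA* to *KCNH*, *KCNJ*, *KCNK*, *KCNMA*, *KCNMB*, *KCNN*, *KCNQ*, *KCNS*, *KCNT* or *KCNV*. This gave 89 of the 20136 protein-coding genes on chromosomes 1 to 22, X and Y. The cells were 501Mel, an established human melanoma cell line, and their CHD4-bound chromatin was sequenced by ChIP-seq after fixation in 0.4% paraformaldehyde. The CHD4 ChIP and the input chromatin each gave 1 library, without replicates, and no treatment is named. The deposited list of broad peaks holds 60126 regions and no read counts, so the list does not give the depth behind a peak and no value has a replicate error. Each peak carries the authors' fold enrichment, a ratio of the ChIP to the background, and a p-value and q-value, both as −log10.

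CHD4 is the ATPase of the NuRD complex, which moves nucleosomes and removes acetyl groups from histones. Potassium channels let potassium leave or enter the cell and so set the resting potential and end electrical excitation. Most of the genes are best known from neurons and muscle, while some act in glia, epithelia and pigment cells.

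A gene was counted as holding a peak when at least 1 bp of a peak overlapped the gene or the 2000 bp before its start. By this rule 44 of the 89 potassium channel genes had a peak, or 49.4% (39.3% to 59.6% as a Wilson 95% interval, for counting error alone), where 58.3% of all protein-coding genes did. Longer genes offer more room for a peak, and the median length was 40699 bp for the channel genes and 27217 bp for all protein-coding genes. Each channel gene was therefore set beside the 50 protein-coding genes outside the family that are nearest to it in length, and of these 64.0% had a peak on average. The channel share was thus below that of genes of like length, with a difference of -14.6 percentage points.

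The share was lower in each class of length, though only in the middle class did the interval leave out the value of the genes nearest in length. Of the 18 channel genes under 10000 bp, 5 had a peak, or 27.8% (interval 12.5% to 50.9%), beside 38.0% of the genes nearest in length. Of the 40 genes from 10000 bp to under 100000 bp, 16 had a peak, or 40% (26.3% to 55.4%), beside 62.4%. Of the 31 genes of 100000 bp and over, 23 had a peak, or 74.2% (56.8% to 86.3%), beside 81.3%. Peak density in the 500000 bp on either side had a median of 2.7 peaks per 100 kb for the channel genes. It was 2.6 for the genes nearest in length and 2.8 for all protein-coding genes. By these medians the surroundings were about equally rich in peaks. Channel genes with a peak had a median of 2.85, and those without a peak 2.4.

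In all, 209 peaks lay at channel genes, and no peak was counted at more than 1 of them. The means of the genes nearest in length add up to 294.3 peaks, which puts the channel genes at 0.710 times that sum. The voltage-gated channel gene *KCNQ5* alone held 46 of the peaks, and without it 163 peaks remained and the ratio was 0.578, an alternative chosen after the data had been seen. Of the 44 genes with a peak, 15 had exactly 1, 13 had from 2 to 4, and 16 had 5 or more.

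**Figure D1:**
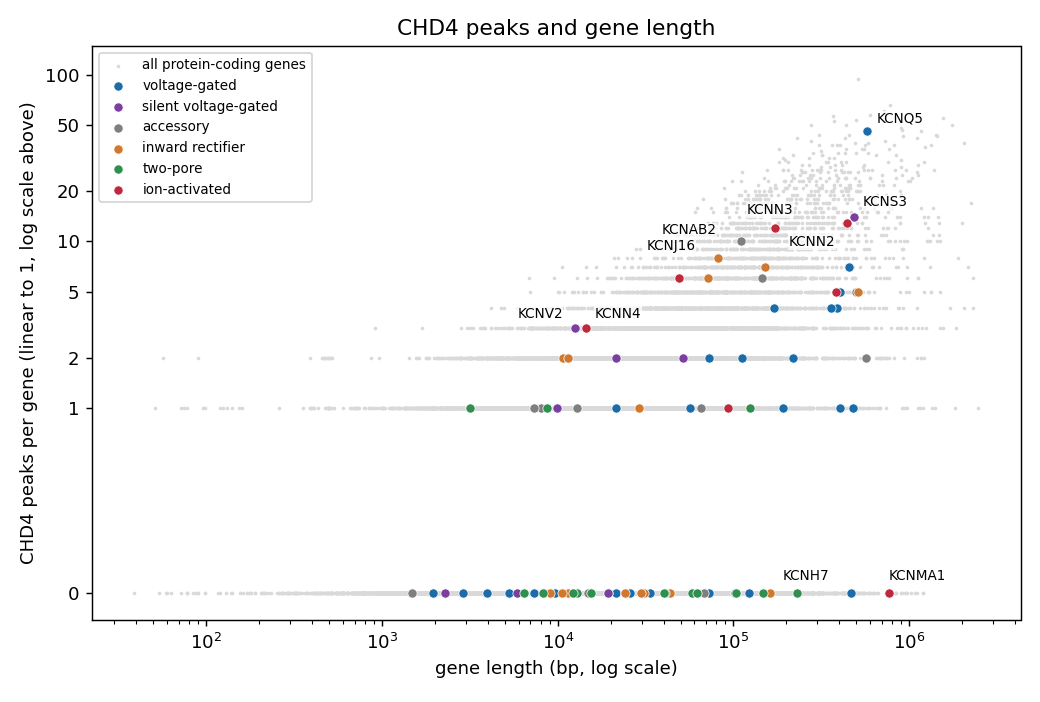
Number of CHD4 peaks per gene (vertical, linear up to 1 and logarithmic above) against gene length in bp (horizontal, log scale). Grey points are all 20136 protein-coding genes and coloured points the 89 potassium channel genes by role. *KCNQ5* stands highest among the channel genes with 46 peaks, and *KCNMA1*, the longest, lies at 0.

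The peaks themselves were of ordinary strength. Their median fold enrichment was 3.01, beside 3.10 for the 36458 peaks at other protein-coding genes, and their median length was 626 bp, beside 614 bp. Their G and C content was 41.5%, beside 44.3%. A −log10 q of at least 5 was reached at 4 of the 89 channel genes, or 4.49%, where 4.74% of all protein-coding genes reached it. These were *KCNN3*, *KCNQ3*, *KCNS3* and *KCNJ10*. The highest fold enrichment of a gene with a peak had a median of 3.42 over the channel genes, 3.44 over all protein-coding genes and 3.53 over the genes nearest in length.

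Peaks at the gene's start were fewer. Of the channel genes, 12 carried a peak no more than 1000 bp from the start, or 13.5% (interval 7.88% to 22.1%), where 33.8% of all protein-coding genes and 33.0% of the genes nearest in length had such a peak. The share of starts rich in CpG, taken as an observed to expected ratio of at least 0.6, was 57.3% for the channel genes and 59.7% for all protein-coding genes. Among these CpG-rich starts a peak was found at 6 of 51 channel genes, or 11.8%, and at 44.5% of all 12014. Among the other starts it was found at 6 of 38, or 15.8%, and at 18.0% of all 8122. This split by CpG content was chosen after the data had been seen.

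By position, 69 of the 209 peaks had their centre in the first intron of the canonical transcript, or 33.0%, and first introns made up 31.3% of the bases searched. Later introns held 79 peaks, or 37.8%, with 44.4% of the bases. Exons held 5 peaks, or 2.39%, with 3.67% of the bases. The stretch before the gene held 12 peaks, or 5.74%, with 1.54% of the bases. A further 41 peaks lay within the gene but outside its canonical transcript, and 3 reached the region searched but were centred outside it. Of the 209 peaks, 12 also overlapped another protein-coding gene or the stretch before it, and for 6 channel genes this held for every peak, so that the peak cannot be assigned to the channel gene alone. Such sharing was not particular to channel genes. With shared peaks left out, 42.7% of the channel genes had a peak in place of 49.4%, and 45.7% of all protein-coding genes in place of 58.3%.

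Voltage-gated channels open on depolarization and carry the outward current that ends an action potential. Of the 30 genes, 15 had a peak, or 50%, beside 66.4% of the genes nearest in length. The 30 genes held 86 peaks in all, where those genes would sum to 128.3. *KCNQ5*, which encodes a subunit of the M-current that dampens neuronal firing, spans 577057 bp on the plus strand of chromosome 6 (GRCh37, chr6:73331520-73908576). Its 46 peaks compare with a mean of 12.3 at its genes nearest in length, a ratio of 3.73, and 49 of these 50 genes had fewer. Of all protein-coding genes, 15 had at least as many, *KCNQ5* included. The gene had 7.94 peaks per 100 kb, where the 500000 bp on either side had 2.4. Of the 46 peaks, 33 lay in the first intron and 12 in later introns, their median fold enrichment was 2.99, and 23 had a −log10 q of at least 2. The strongest, enriched 4.04-fold at a −log10 q of 4.47, lay 235597 bp after the start in the first intron.

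*KCNQ3*, which also serves the M-current, had 4 peaks, beside a mean of 9.2 at its genes nearest in length. The strongest, in intron 9, was enriched 4.89-fold at a −log10 q of 6.93, and 99.4% of all peaks had a lower fold enrichment. *KCNQ1*, which repolarizes the heart, had 5 peaks with a highest fold enrichment of 3.96, in intron 11.

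The 5 *KCNQ* genes held 58 peaks, of which *KCNQ5* held 46, where their genes nearest in length would sum to 36.5. The other voltage-gated families held from 2 to 12 peaks each, and each fell below the sum of its genes nearest in length. The families were not tested against each other. Of the 8 *KCNA* genes, which encode shaker-type channels, *KCNA2* alone had peaks, and its highest fold enrichment was 2.70. This was a share of 12.5% (interval 2.24% to 47.1%) beside 42% of the genes nearest in length. *KCNB2*, a delayed rectifier, had 5 peaks with a highest fold enrichment of 3.98. *KCNC2*, which serves fast firing, had 4 peaks and reached 4.01. *KCND2*, which carries A-type current, had 1 peak of 3.30 and *KCND3* had 2. Among the 8 *KCNH* genes, *KCNH1*, an ether-à-go-go channel often found in tumours, had 7 peaks, beside a mean of 8.86, with a highest fold enrichment of 3.77 in intron 7. *KCNH8* had 4 peaks, of which 1 lay at the start, and *KCNH5* had 1. Among the genes of this role without a peak were *KCND1*, *KCNH2*, *KCNH3*, *KCNH4*, *KCNH6* and *KCNH7*.

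**Figure D2:**
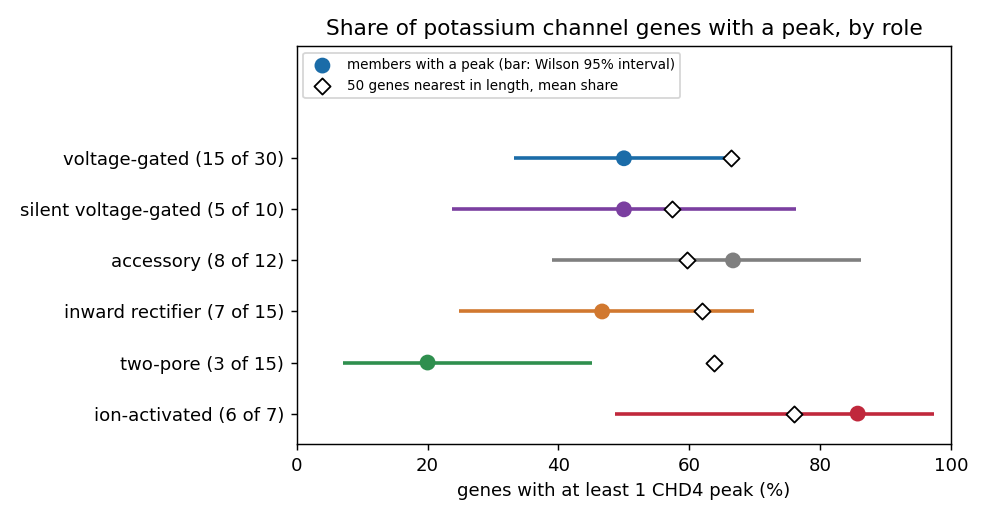
Share of potassium channel genes with at least 1 CHD4 peak (horizontal, %) for each of the 6 roles (vertical), with Wilson 95% intervals as bars; diamonds give the mean share among the 50 genes nearest in length to each member. The share is lowest for the two-pore genes, at 20%, and highest for the ion-activated genes, at 85.7%. Only for the two-pore genes does the interval leave out the diamond.

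Silent subunits form no channel by themselves and change the currents of the *KCNB* channels they join. Of the 10 genes, 5 had a peak, or 50%, beside 57.4% of the genes nearest in length, while their 22 peaks were more than the 18.1 to which those genes would sum. *KCNS3* had 14 peaks, beside a mean of 7.22, and 42 of its 50 genes nearest in length had fewer. Its strongest peak spans 5582 bp, with an enrichment of 4.24-fold at a −log10 q of 5.79. In the annotation used here *KCNS3* covers 483769 bp, and 12 of its peaks, the strongest included, lay outside the canonical transcript. *KCNV2*, a partner subunit of photoreceptors, had 3 peaks in 12528 bp, beside a mean of 0.660, which was the highest ratio among channel genes of at least 10000 bp, at 4.55. All 3 also overlapped *PUM3*. *KCNG3* had 2 peaks, and the stronger, of 3.72, lay before its start and also overlapped *MTA3*, which encodes another NuRD subunit. *KCNG4* had 2 peaks and *KCNS1* had 1. *KCNF1*, *KCNG1*, *KCNG2*, *KCNS2* and *KCNV1* had none.

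Accessory subunits bind the pore-forming proteins and alter their gating. Of the 12 genes, 8 had a peak, or 66.7%, beside 59.7% of the genes nearest in length, while their 27 peaks were fewer than the 38.7 to which those genes would sum. *KCNAB2*, a cytoplasmic beta subunit of shaker-type channels, had 10 peaks, beside a mean of 4.32, and its highest fold enrichment was 3.57. *KCNAB1* had 5 peaks, beside a mean of 10.2, and the 1 peak of *KCNAB3* was shared with neighbouring genes. *KCNE4*, which inhibits *KCNQ1* channels, had 6 peaks, beside a mean of 3.18, with a highest fold enrichment of 4.09, and its 4.05 peaks per 100 kb compare with 5.6 on either side. *KCNE1*, *KCNE2* and *KCNE3* had 1 peak each, and that of *KCNE1* lay at the start. *KCNMB2*, which inactivates the large calcium-activated channel, had 2 peaks in 571498 bp, beside a mean of 11.8, with a highest fold enrichment of 3.69. *KCNE5*, *KCNMB1*, *KCNMB3* and *KCNMB4* had none. The strongest peaks of *KCNAB2*, *KCNE4* and *KCNMB2* lay outside the canonical transcript, as did most of the other peaks of these genes.

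Inward rectifiers pass potassium more easily into the cell than out of it. Of the 15 genes, 7 had a peak, or 46.7%, beside 61.9% of the genes nearest in length, and they held 31 peaks, beside a sum of 34.4. *KCNJ10*, which clears potassium in glia and serves the pigment cells of the inner ear, had 6 peaks, beside a mean of 1.92. Its strongest, of 1799 bp in the first intron, was enriched 3.80-fold at a −log10 q of 5.10, while 2 of the 6 also overlapped *PIGM*. *KCNJ16*, a partner subunit of *KCNJ10*, had 8 peaks, beside a mean of 2.90, and 47 of its 50 genes nearest in length had fewer. *KCNJ15* had 7 peaks, beside a mean of 4.38. *KCNJ13*, the channel of the retinal pigment epithelium, had 2 peaks, beside a mean of 0.580, a ratio of 3.45. The stronger, of 3.69 and 2342 bp long, covered the start, and both also overlapped *GIGYF2*. *KCNJ2*, a rectifier of muscle, had 2 peaks, and *KCNJ6*, which G proteins open, had 5. *KCNJ4* had 1 peak. The 8 genes without a peak were *KCNJ1*, *KCNJ3*, *KCNJ5*, *KCNJ8*, *KCNJ9*, *KCNJ11*, *KCNJ12* and *KCNJ14*. *KCNJ12* has a near-identical copy elsewhere in the genome, and reads that fit both copies cannot be told apart.

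Two-pore channels carry the background leak of potassium. Of the 15 genes, 3 had a peak, or 20% (interval 7.05% to 45.2%), beside 63.7% of the genes nearest in length, and together they held 3 peaks where those genes would sum to 30.6. *KCNK13* had 1 peak of 3.42, centred before its start. *KCNK4*, a channel opened by membrane stretch, had 1 of 3.09 in intron 2, and *KCNK7* had 1 of 2.92 that also overlapped *MAP3K11*. *KCNK1*, *KCNK2*, *KCNK3*, *KCNK5*, *KCNK6*, *KCNK9*, *KCNK10*, *KCNK12*, *KCNK15*, *KCNK16*, *KCNK17* and *KCNK18* had none, and no gene of this role had a peak at the start.

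Ion-activated channels open when calcium or sodium rises inside the cell. Of the 7 genes, 6 had a peak, or 85.7% (interval 48.7% to 97.4%), beside 76.0% of the genes nearest in length, while their 40 peaks were fewer than the 44.3 to which those genes would sum. The 4 *KCNN* genes encode the small- and intermediate-conductance calcium-activated channels. All 4 had a peak, or 100% (interval 51.0% to 100%), beside 70.5% of the genes nearest in length. Together they held 34 peaks, where those genes would sum to 19.0. All 5 *KCNQ* genes, all 3 *KCNAB* genes, the 2 *KCNB* genes and the 2 *KCNT* genes also had peaks. *KCNN3* had 12, beside a mean of 5.10, *KCNN1* had 6, beside 2.1, and *KCNN4* had 3, beside 0.980, with a highest fold enrichment of 3.91 in the first intron. Peaks were dense around 2 of these genes, and *KCNN3* had 6.86 per 100 kb where the 500000 bp on either side had 8.1, and *KCNN1* 11.8 where they had 14.5, while *KCNN4* had 18.2 against 4.7. *KCNN2* had 13 peaks, beside 10.8, and 12 of these lay between 318659 and 369153 bp after its start, in introns 2 and 3. *KCNT2*, a channel opened by sodium, had 5 peaks, beside a mean of 8.52, with a highest fold enrichment of 4.16, and *KCNT1* had 1. *KCNMA1*, the large-conductance calcium-activated channel, had no peak in 768769 bp, where its genes nearest in length had a mean of 13.3.

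**Figure D3:**
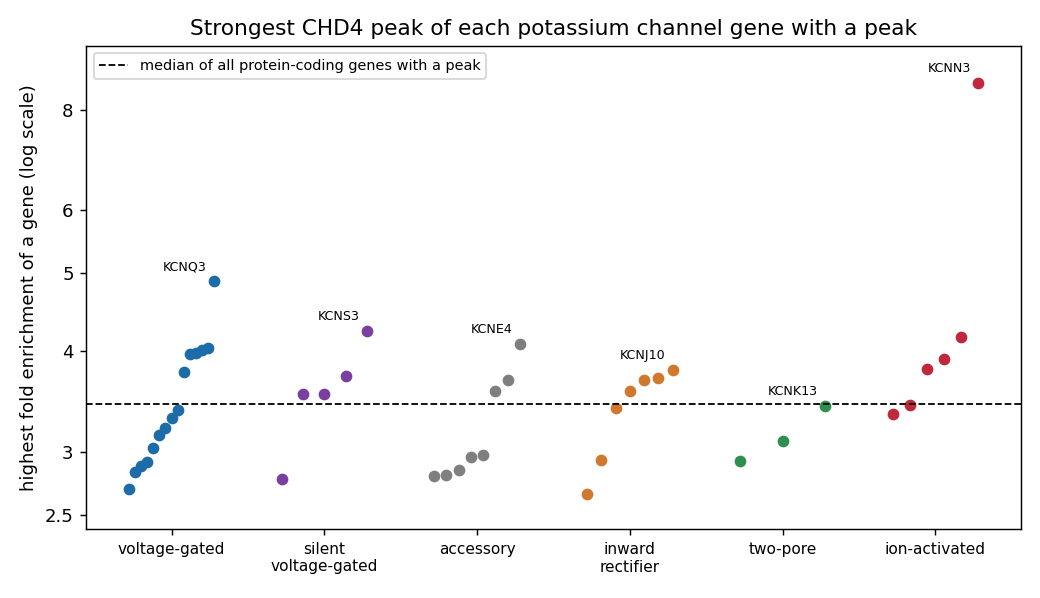
Highest fold enrichment of a CHD4 peak (vertical, log scale) for each of the 44 potassium channel genes with a peak, by role (horizontal). Points are genes, spread sideways in order of their value, and the dashed line is the median over all protein-coding genes with a peak, 3.44. *KCNN3* lies at 8.63, and *KCNQ3*, the next highest, at 4.89.

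The strongest peak of any channel gene lay in *KCNN3* (chr1:154669931-154842757, minus strand), in GRCh37. It was enriched 8.63-fold at a −log10 q of 24.4, the sixth highest fold enrichment among all 60126 peaks. It lies over a simple repeat, and what the repeat contributed to the fold enrichment was not tested. The remaining 11 peaks of *KCNN3* ran from 2.38 to 3.61.

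The middle of the strongest peak is shown for 4 of the 6 genes of highest fold enrichment, as examples of the sequence under peaks of 4.04-fold to 4.24-fold. The 2 strongest, in *KCNN3* and *KCNQ3*, are not shown, and the examples do not stand for them. All are from the plus strand of GRCh37 and none overlaps an annotated exon. Capitals mark the AP-1 motif TGANTCA and the motif CATGTG, each searched on both strands. The stretches are chr2:18286449-18286648 for *KCNS3*, chr1:196528092-196528291 for *KCNT2*, chr2:223924081-223924275 for *KCNE4* and chr6:73567018-73567217 for *KCNQ5*.
KCNS3 peak: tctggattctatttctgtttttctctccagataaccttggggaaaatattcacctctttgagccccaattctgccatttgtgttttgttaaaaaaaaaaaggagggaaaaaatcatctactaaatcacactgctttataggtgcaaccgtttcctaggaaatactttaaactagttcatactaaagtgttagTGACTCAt
KCNT2 peak: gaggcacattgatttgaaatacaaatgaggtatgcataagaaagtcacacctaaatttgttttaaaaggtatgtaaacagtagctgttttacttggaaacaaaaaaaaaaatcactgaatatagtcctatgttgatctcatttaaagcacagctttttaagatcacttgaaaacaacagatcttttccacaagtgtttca
KCNE4 peak: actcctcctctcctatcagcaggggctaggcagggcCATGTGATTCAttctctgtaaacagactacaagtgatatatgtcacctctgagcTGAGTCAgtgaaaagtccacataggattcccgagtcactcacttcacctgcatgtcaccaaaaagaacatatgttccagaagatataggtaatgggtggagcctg
KCNQ5 peak: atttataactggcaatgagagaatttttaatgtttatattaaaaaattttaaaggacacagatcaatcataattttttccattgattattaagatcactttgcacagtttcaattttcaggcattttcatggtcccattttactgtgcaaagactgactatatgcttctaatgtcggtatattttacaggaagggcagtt
The stretch of *KCNE4* is the whole peak of 195 bp and holds 2 AP-1 matches, the first of which overlaps the CATGTG match. The stretch of *KCNS3* holds 1 AP-1 match, and those of *KCNT2* and *KCNQ5*, with 30.5% and 29.5% of G and C, hold no match to any motif searched. In the middle 200 bp of all peaks of the list, 7.67% held an AP-1 match and 15.7% a CATGTG match.

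Within 250 bp of the centre, 32 of the 209 peaks at channel genes held an AP-1 match, or 15.3%, beside 17.2% of the peaks at other genes. The E-box CACGTG was held by 6.22%, beside 8.28%, and CATGTG by 30.6%, beside 32.2%. The short SOX motif ACAANG was held by 72.7%, beside 66.1%, and the CTCF motif by 2 peaks, or 0.957%, beside 1.30%. For each motif but SOX the interval of the channel share took in the value at other genes. For SOX that interval ran from 66.3% to 78.3%, so it left out the 66.1% only narrowly. These intervals treat the peaks as independent, though 95 of the 209 lay at 5 genes. The lower G and C content of the channel peaks was not taken into account.

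**Figure D4:**
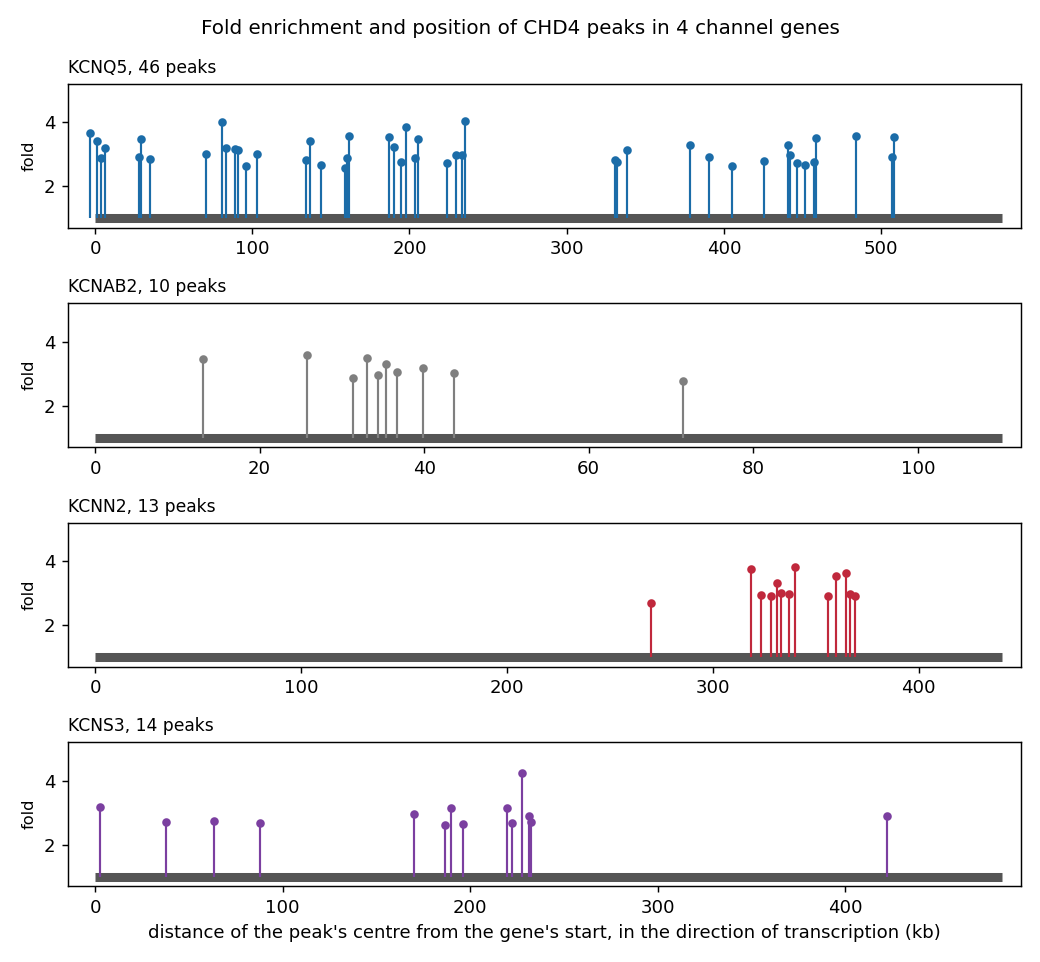
Fold enrichment of each CHD4 peak (vertical) against the distance of its centre from the gene's start in kb (horizontal), for *KCNQ5*, *KCNAB2*, *KCNN2* and *KCNS3*. Grey bars are the genes, drawn from the start in the direction of transcription. The peaks of *KCNQ5* run along most of the gene, and those of *KCNN2* lie together past its middle.

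Among the 12 genes with such a start peak were *KCNE1*, *KCNG3*, *KCNH8*, *KCNJ2*, *KCNJ6*, *KCNJ10*, *KCNJ13*, *KCNN3*, *KCNN4* and *KCNQ5*. In 4 of the 12 every peak at the start also overlapped another protein-coding gene. Over the 12 genes the strongest start peak ran from 2.62 at *KCNJ2* to 3.72 at *KCNG3*, so all lay below the strongest peaks of *KCNN3* and *KCNQ3*. At *KCNN3* the start peak was enriched 3.04-fold at a −log10 q of 2.59. The 250 bases before this start, covered in full by the peak and free of annotated exons, are given 5′ to 3′ on the gene's strand and were chosen after the values were seen. They are chr1:154842758-154843007 on the minus strand, in GRCh37. Capitals mark a match to ACAANG, which 28.2% of the same stretches of all protein-coding genes hold.
KCNN3 start: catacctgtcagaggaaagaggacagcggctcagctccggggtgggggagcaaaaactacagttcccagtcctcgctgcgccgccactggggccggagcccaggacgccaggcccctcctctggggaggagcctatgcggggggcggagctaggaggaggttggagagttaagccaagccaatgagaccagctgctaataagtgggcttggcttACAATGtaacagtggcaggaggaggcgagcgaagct
The G and C content is 62.0%. The stretch holds no match to the other motifs searched, which says only that these letters are not in this window.

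The 10 longest channel genes without a peak were *KCNMA1*, *KCNH7*, *KCNK2*, *KCNJ3*, *KCNK10*, *KCNC1*, *KCNK9*, *KCNG2*, *KCNC4* and *KCNMB4*. *KCNMA1* tied with many others for the lowest ratio, 0, but is the longest channel gene. Of the 138 protein-coding genes at least as long, *KCNMA1* included, 15 had no peak, and of its 50 genes nearest in length 7 had none. *KCNH7*, an ERG-type channel of neurons, spans 467361 bp, and its genes nearest in length had a mean of 8.56 peaks. *KCNK2*, a stretch-gated leak channel, spans 231316 bp, beside a mean of 6.12, and *KCNJ3*, a G-protein-gated rectifier of the heart, 160500 bp, beside 4.76. Peaks were also few around these genes. The 500000 bp on either side held 0.7 peaks per 100 kb for *KCNMA1*, 1.2 for *KCNH7*, 1 for *KCNK2* and 0.5 for *KCNJ3*, against the median of 2.8 for all protein-coding genes. When the genes of like length were chosen to have a like peak density around them, 64.9% had a peak, a difference of -15.4 points for the channel genes. This choice was made after the data had been seen.

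Other ion channel genes were counted by the same rule. Of 13 sodium channel genes 6 had a peak, or 46.2% (interval 23.2% to 70.9%), beside 71.2% of their genes nearest in length. Of 26 calcium channel genes 15 had a peak, or 57.7% (38.9% to 74.5%), beside 72.4%. Of 10 *HCN* and *CNG* channel genes 4 had a peak, or 40% (16.8% to 68.7%), beside 66.6%, and of 15 chloride channel genes 8, or 53.3% (30.1% to 75.2%), beside 68.3%. All 4 shares were lower than those of genes of like length, but only for the sodium channel genes did the interval leave out that value, and narrowly. The sodium channel genes held 8 peaks beside a sum of 45.8 at their genes nearest in length, and the calcium channel genes 42 beside 123.5. The *HCN* and *CNG* channel genes held 8 beside 31.0, and the chloride channel genes 22 beside 36.3. A last list held 24 genes, mostly for proteins that bind or regulate potassium channels, such as the *KCNIP* proteins and the sulphonylurea receptors. It also held *KCNU1*, a potassium channel gene whose symbol the 89 do not cover, with 10 peaks. Of the 24, 17 had a peak, or 70.8% (50.8% to 85.1%), beside 68.2%, while their 70 peaks were fewer than the 121.9 to which their genes nearest in length would sum. The strongest, of 4.6, lay at *KCNIP3*.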

How the data were processed

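CHD4 ChIP and input chromatin of 501Mel cells were sequenced by the authors, 1 library each. The submitters' processing notes name bcl2fastq 2.17.1.14, Bowtie 1.0.0 and MACS2 2.1.1.20160309, and hg19. The deposited list gives, per peak, the fold enrichment over the background, a ratio computed by the authors' peak caller. It also gives the −log10 of the p-value and q-value, computed by the authors' caller. The control of the call is not given in the sources used here and was taken to be the input. The coordinates were taken as hg19 with the first base numbered 1, and genes came from GENCODE release 44 on GRCh37, which differs from the study's annotation. An overlap of 1 bp counted. Chromosome Y copies of genes shared with X were left out.

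Each gene was compared with the 50 protein-coding genes nearest in log length. The scripts were tested on simulated data. Alternatives covered stricter peaks, other windows, merged peaks and other choices of comparison genes. The genes named with values were the 10 of highest fold enrichment, the 10 with most peaks, the 5 of at least 10000 bp with the highest and the 5 with the lowest ratio to genes of like length, genes with a peak at their start, the 10 longest without a peak and the strongest of each family. The other genes are given by count or in passing, and some items are not reported here. The members and lists were chosen with earlier results of these data known. Tools were samtools 1.23.1 and Python 3.11.15 with the libraries matplotlib 3.10.9, pysam 0.24.0, scipy 1.17.1, pandas 2.3.3 and numpy 2.4.6.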

Additional observations from a re-analysis of the deposited data

How the results depend on the processing

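The channel share stayed below that of genes of like length in all 13 alternatives, with differences from -17.1 to -1.35 points. The smallest came at a −log10 q threshold of 5, which left 4 peaks. Stricter lists hold fewer peaks by construction. At a threshold of 2, 36.0% of the channel genes had a peak and 95 peaks were counted, 50.02% of the genes nearest in length had a peak, and 4.49% of the channel genes had a peak at the start, where 20.8% of all protein-coding genes did. At the threshold of 5 the values were 4.49%, 4 peaks, 5.84% and 0%, where 1.5% of all protein-coding genes had a start peak, and the median highest fold enrichment was 4.57. With a fold enrichment of at least 4 they were 7.87%, 9 peaks, 13.4% and 0%, where 3.10% of all did, and the median was 4.16. The share of the genes nearest in length was 58.0% with the gene only, where 46.1% of the channel genes had a peak. With a longer stretch before the start it was 65.8%, beside 52.8% of the channel genes. Without peaks shared with another gene it was 52.9%, beside 42.7%, a difference of -10.2 points. No interval is given for the channel shares with stricter peaks, other windows or shared peaks left out, except at the threshold of 5. Without an interval, those differences may lie within counting error. With comparison genes on the same chromosome the share of the genes nearest in length was 66.5%, a difference of -17.1 points. The start share of the channel genes was 13.5% within 500 bp, 18.0% within 2000 bp and 20.2% with the starts of all transcripts, where 29.1%, 38.6% and 42.5% of all protein-coding genes had such a peak. With only the centre of a peak counted it was 11.2%, beside 29.8%. The median ratio of peak numbers was 0 in most settings and at most 0.169.

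With 1 library of each kind, replicate error is not known. The list gives no read counts behind its values and holds only the regions that the authors deposited, of which 29147 of 60126, and 95 of the 209 at channel genes, reach a −log10 q of 2. Intervals cover counting error only, and genes are not replicates.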
